A study of Drosophila melanogaster with 36 samples.

Results

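The interior of the X chromosome was taken as every 40-kb bin of X lying at least 2 Mb from both ends of the arm in the dm3 build, with the end of the arm given by the largest bin end in the deposited matrices. This gave 460 bins from X 2000001 to 20400000, or 18.4 Mb, of 561 bins of X and of 2977 bins on the 5 large arms. The choice used position alone. The same rule gave interiors of 475 bins on 2L, 428 on 2R, 513 on 3L and 597 on 3R, which served for comparison. Only contacts within an arm were used.

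Hi-C ligates and sequences DNA ends that lie near each other in fixed nuclei, so a matrix of contacts records how often pairs of bins meet. Contacts fall with distance along the chromosome, and domains (TADs) are stretches whose bins meet each other more than they meet bins across a boundary. Insulation is the loss of contacts across such a boundary. In flies the X chromosome is the large chromosome present in one copy in males and in a pair in females, and it is a single large arm, since its other arm is small and heterochromatic, while chromosomes 2 and 3 each join a left and a right arm at a centromere.

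The cells were OSCs, a cultured line of Drosophila melanogaster ovarian somatic cells in which nuclear Piwi and its piRNAs silence transposons. Cells received siRNA against EGFP (Control-KD) or against Piwi, Nxf2, H1, Egg or HP1a, and the labels give 2 days of knockdown for HP1a-KD and its own control. Piwi is the Argonaute protein of this pathway and Nxf2 its partner in silencing on chromatin. H1 is the linker histone, Egg (Eggless) a histone methyltransferase that places methyl groups on lysine 9 of histone H3, and HP1a a reader of that mark. There were 9 matrices, 4 of Control-KD and 1 of each knockdown, and each was merged by the authors from 2 replicates, so no spread between replicates was left. H1-KD and Egg-KD share a control. Changes were therefore set beside the differences among the 4 Control-KD matrices (6 pairs). Each such pair compares different series, while a knockdown was compared with the control of its own series. Lists of values for the knockdowns run from Piwi, Nxf2, H1 and Egg to HP1a unless named otherwise.

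Of the 460 bins, 457 were kept in all 9 matrices. The bins X 2720001 to 2760000 and 2760001 to 2800000 had no values in any matrix, and X 19800001 to 19840000 had none in 4. Contacts before the balancing step, recovered from the deposited values, numbered 2694671 to 7405008 within the X interior. A bin of X held 0.759 to 0.801 times the contacts of an autosome bin. A median of 4781 to 13464 short-range contacts per bin gave a counting error of 0.0124 to 0.0209 on the log2 scale. One bin stood apart among controls: at X 2680001 to 2720000, beside the bins with no values, the Control-KD matrices differed by up to 0.85 on the log2 scale, against at most 0.20 at any other X interior bin.

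The first question was whether contacts fall with distance on X as they do on the autosomes. Across the range measured they fell less steeply than on the mean of the autosome arms. Neighbouring bins at 40 kb met less often on X than on any autosome arm in 9 of 9 matrices, with a log2 ratio of X to the autosome mean of -0.06 ± 0.011 (SD, n = 9 matrices; exact two-sided sign-flip permutation test, p = 0.00391, adjusted over 9 distances 0.00586). The ratio was -0.01 ± 0.010 at 80 kb, 0.01 ± 0.018 at 120 kb and 0.01 ± 0.014 at 200 kb (exact sign-flip adjusted p = 0.0251, 0.0508 and 0.0308, n = 9). From 400 kb on it was above 0 in 9 of 9 matrices.

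At 400 kb the log2 ratio of X to autosomes was 0.04 ± 0.017, at 1 Mb 0.04 ± 0.022, at 2 Mb 0.11 ± 0.034, at 4 Mb 0.12 ± 0.033 and at 10 Mb 0.41 ± 0.043 (SD, n = 9; exact sign-flip adjusted p = 0.00586 at each). A log2 ratio of 0.41 is a 1.32-fold higher mean value. X was the highest of the 5 arms in 8 of 9 matrices at 2 Mb and in 8 of 9 at 10 Mb, but in 0 of 9 at 4 Mb. The 2L interior stood apart at long range, and without it the ratio at 4 Mb was 0.06 ± 0.032 and at 10 Mb 0.25 ± 0.052, still above 0 in 9 of 9 matrices at both distances.

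Sample by sample, the log2 ratio at 10 Mb was 0.45 in the control of the Piwi series, 0.44 in that of the Nxf2 series, 0.44 in that of the H1 and Egg series and 0.36 in that of the HP1a series. In the knockdowns it was 0.36 in Piwi-KD, 0.34 in Egg-KD, 0.45 in Nxf2-KD and 0.40 in both H1-KD and HP1a-KD. Controls and knockdowns overlapped.

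These ratios rest on balanced values, which give each kept bin an equal sum within a matrix. On the recovered contacts, where X bins hold fewer contacts, the log2 ratio was negative at each distance up to 4 Mb (-0.28 at 2 Mb) and 0.04 at 10 Mb (exact sign-flip adjusted p = 0.184, n = 9). The slopes given next kept their direction and their side of the threshold on recovered contacts.

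**Figure D1:**
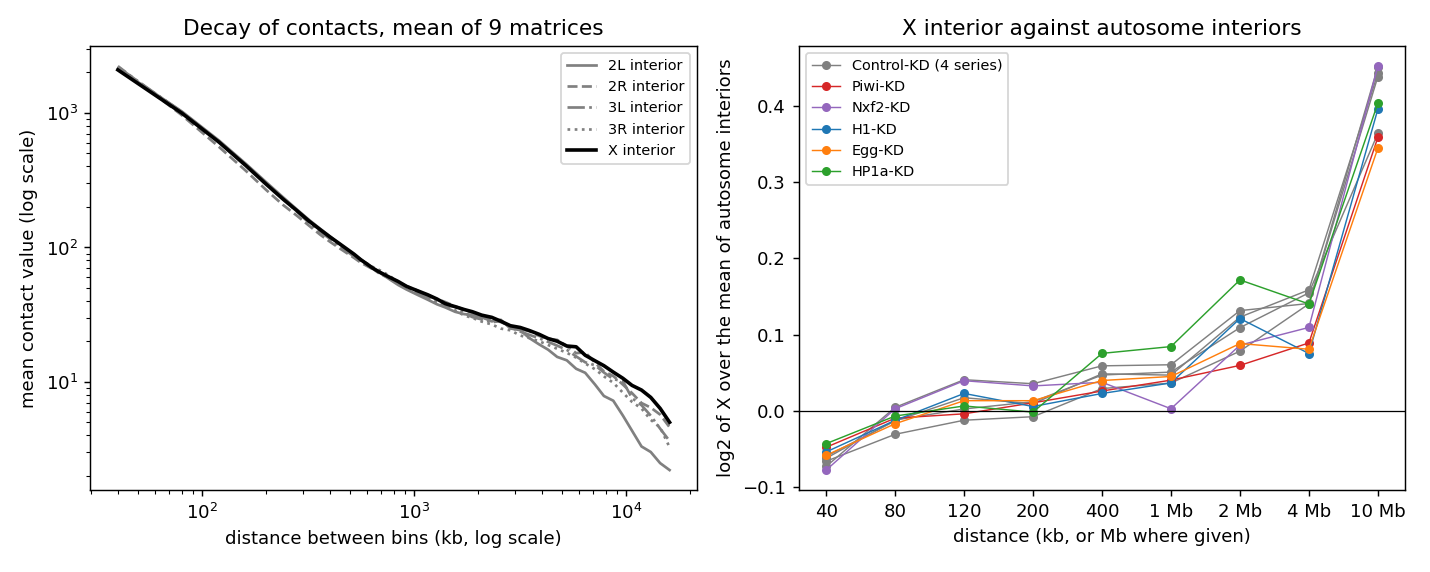
Left, mean contact value (log scale) against distance between bins (kb, log scale), averaged over 9 matrices, for the X interior (black) and 4 autosome interiors (grey line styles); 2L falls below the others at long range. Right, log2 of the X value over the mean of the autosome interiors at 9 distances, 1 line per matrix, rising from -0.06 at 40 kb to 0.41 at 10 Mb on average.

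The slope of log10 value on log10 distance was -1.27 ± 0.052 on X between 40 and 400 kb, -0.78 ± 0.038 between 400 and 2000 kb and -0.72 ± 0.048 between 2000 and 10000 kb (SD, n = 9). X was shallower than the autosome mean by 0.0283, 0.0338 and 0.149, each in 9 of 9 matrices (exact sign-flip permutation p = 0.00391 for each range, the smallest that 9 matrices can give). Between 40 and 400 kb X was the shallowest arm in 5 of 9, beside a mean slope of -1.28 on 2L. Between 400 and 2000 kb it was so in 0 of 9, and 2R was shallower (-0.75). Between 2000 and 10000 kb it was the shallowest arm in 9 of 9, beside mean slopes of -0.77 on 2R, -0.78 on 3L, -0.79 on 3R and -1.13 on 2L. Without 2L the difference in that range was 0.0617 ± 0.016.

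Upon knockdown the distance curve of X moved relative to that of the autosomes, at some distances by more than the Control-KD matrices differed. At 400 kb the change of the log2 ratio of X to autosomes was -0.003, -0.022, -0.026, -0.009 and 0.028 in the 5 knockdowns. At 4 Mb it was -0.05, -0.03, -0.08, -0.08 and -0.015. The largest difference between Control-KD matrices was 0.0298 at 400 kb, passed in size by no knockdown. It was 0.0184 at 4 Mb, passed by each knockdown but HP1a-KD. The 4-Mb change was thus negative in 5 of 5, with a mean of -0.052 ± 0.030 (SD, n = 5; exact sign-flip permutation p = 0.063, the smallest that 5 knockdowns allow, adjusted over 9 distances 0.562, and H1-KD and Egg-KD share a control). At the other 8 distances the exact p was 0.188 or more. At 40 kb Piwi-KD (0.018) and HP1a-KD (0.019) passed the 0.0133 between controls. At 1 Mb Nxf2-KD (-0.058) and HP1a-KD (0.033) passed 0.024 in size. HP1a-KD (0.063) passed 0.0532 at 2 Mb, and Piwi-KD (-0.093) and Egg-KD (-0.098) passed 0.0877 at 10 Mb.

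The second question was whether short-range contacts, summed for each bin over partners 40 to 400 kb away, changed on X as on the autosomes. The X-wide level moved within the range of the controls: the median change of X minus that of the autosomes was 0.014, -0.0082, 0.011, -0.0011 and 0.0024 in the 5 knockdowns, beside 0.0119 (root mean square) and at most 0.0189 between Control-KD matrices (exact sign-flip permutation p = 0.375 over 5 knockdowns). Single stretches went further.

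After removal of the arm median, a bin was called decreased or increased past a limit of 3 control-pair spreads, 0.155 on the log2 scale, with a spread of 0.0517. In Piwi-KD, 8 of 457 X interior bins (1.75%) were decreased, with 2.14% of all bins of the 5 arms, and 0 were increased, with 0.0339% of all bins. In Nxf2-KD, 10 (2.19%) were decreased, with 2.54% of all bins, and 1 increased, with 0.0676%. These shares lie near or below the background. The controls set against each other put up to 7 X interior bins beyond the limit in one direction. All of these came from pairs with the Nxf2-series control, and the pairs without it put 0 beyond the limit. The SD over X bins was 0.0652 to 0.0791 in pairs with that control and 0.0275 to 0.0467 in the others. The spread behind the limit includes all 6 pairs. With the Nxf2-series control in place of their own, the decreased bins were 31 for Piwi-KD, 72 for HP1a-KD and 48 for H1-KD.

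In H1-KD, 25 of 457 bins (5.47%) were decreased, with 4.24% of all bins, and 19 (4.16%) were increased, with 3.32%. In Egg-KD, 18 of 458 (3.93%) were decreased, with 3.18% of all bins, and 2 were increased, with 0.304%. In HP1a-KD, 26 of 458 (5.68%) were decreased, with 4.5% of all bins, and 29 (6.33%) were increased, with 3.04%. In autosome interiors 2.35% of bins were increased in HP1a-KD. With 4 Mb left out at each end the count of increased X bins in HP1a-KD fell to 10, over fewer bins. That setting leaves out most of the stretch between 18 and 20 Mb, where 14 of the 29 lay. No share is given for it.

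**Figure D2:**
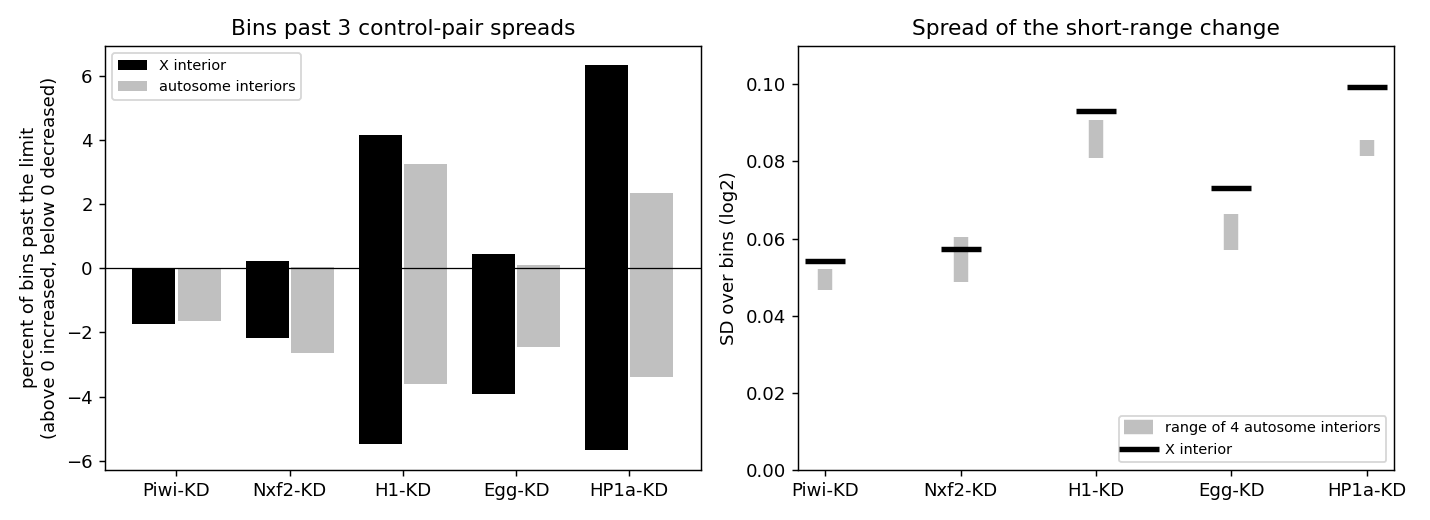
Left, percent of bins past the limit of 0.155 in each knockdown, increased above 0 and decreased below 0, on the X interior (black) and in the autosome interiors (grey). Right, SD over bins of the short-range change (log2) on the X interior (black bar) and its range over 4 autosome interiors (grey); X is above the range in 4 of 5 knockdowns.

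The spread of the change over bins was wider on X. Its SD was 0.054, 0.057, 0.093, 0.073 and 0.099 in the 5 knockdowns, above every autosome arm except in Nxf2-KD. The SD of X minus the mean SD of the autosome arms was positive in 5 of 5 (0.0014 to 0.0164; exact sign-flip permutation p = 0.063, the smallest that 5 allow). Control pairs also spread more on X (0.0574 against 0.0469 in autosome interiors, or 0.0511 without the bin at X 2680001), and X bins hold fewer contacts. Their part in the wider spread was not tested.

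Balancing bears on these calls, because it lowers the values of a bin that gains contacts in total. Of the decreased bins, the total of recovered contacts was higher in the knockdown, relative to the arm median, in 7 of 8, 10 of 10, 24 of 25, 17 of 18 and 22 of 26. Over all X interior bins this total was higher in 44.1, 49.8, 47.6, 46.3 and 46.7%. The unbalanced short-range contacts of the decreased bins were lower in 8 of 8, 10 of 10, 18 of 25, 16 of 18 and 9 of 26, and in HP1a-KD their median unbalanced change was 0.10. No share over all X bins is given for the unbalanced short-range contacts. Of the increased bins, 28 of 29 in HP1a-KD and 13 of 19 in H1-KD had lower total contacts, and unbalanced short-range contacts were higher in 13 of 29 and 19 of 19. On recovered contacts with their own limit, 0, 0, 0, 1 and 12 bins were decreased and 0, 0, 7, 0 and 3 increased.

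**Figure D3:**
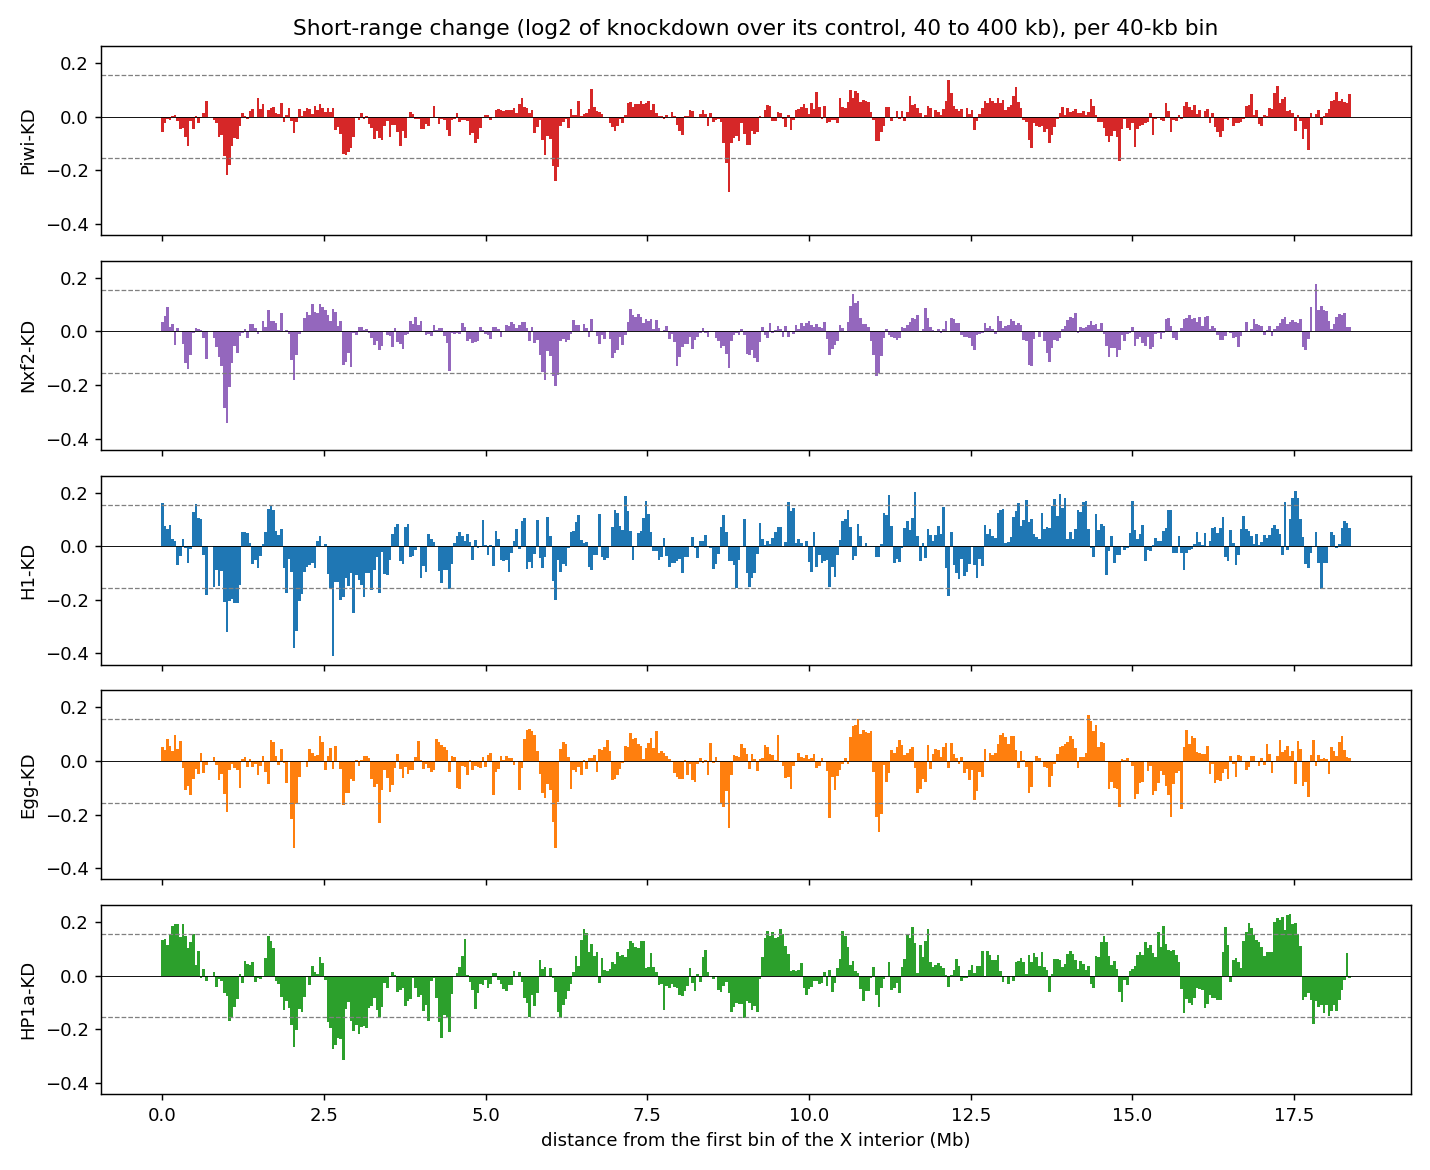
Short-range change per 40-kb bin (log2 of knockdown over its own control, arm median removed) along the X interior, plotted by distance from its first bin (Mb), 1 panel per knockdown. Dashed lines mark the limit of 0.155 on either side. Narrow decreases recur at the same places in several panels, and H1-KD and HP1a-KD are both low on these balanced values between 2 and 4 Mb from the first bin.

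Some decreases fell in the same bins in several knockdowns. Of the X interior bins, 54 were decreased in at least 1 knockdown, 22 in at least 2, 4 in 4 and 0 in all 5. No bin was decreased in one knockdown and increased in another. These counts were made for the X interior only, and no share over all bins of the 5 arms is given beside them. Whether decreases recur more on X than on the autosomes was not tested. Neighbouring bins share most of their partners, so a run of adjacent bins can count a single place several times. H1-KD and Egg-KD share their control, while the other knockdowns have controls of their own.

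The bin X 3000001 to 3040000 had the largest decrease in Nxf2-KD, from a short-range sum of 18099 to 13918 (log2 change after the arm median -0.34). It fell from 20777 to 18281 in Piwi-KD (-0.22) and from 8006 to 6141 in H1-KD (-0.32). The change was -0.19 in Egg-KD and -0.08 in HP1a-KD, and at most 0.0953 in size between Control-KD matrices. Its right neighbour, X 3040001 to 3080000, changed by -0.18, -0.21, -0.20, -0.03 and -0.17 in the 5 knockdowns. Both are thus past the limit in 4 of 5 knockdowns, a different 4 for each. The removed bins at X 2720001 to 2800000 lie within reach of their partners.

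At X 8080001 to 8120000 the sum fell from 13165 to 11409 in Piwi-KD (-0.24), from 10562 to 8932 in Nxf2-KD (-0.20) and from 4996 to 4477 in Egg-KD (-0.33). H1-KD gave -0.20 and HP1a-KD -0.06, with controls differing by at most 0.0903. This was a sparse stretch, with short-range values 0.44 below the X median on the log2 scale over the 9 matrices. The last bin decreased in 4 knockdowns, X 4040001 to 4080000, changed by -0.32 in Egg-KD, -0.38 in H1-KD, -0.26 in HP1a-KD, -0.18 in Nxf2-KD and -0.06 in Piwi-KD. It gained contacts in total, by 0.35 in H1-KD and 0.30 in Egg-KD on the log2 scale, and its unbalanced short-range contacts changed by -0.04 in both.

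Piwi-KD had its largest decrease at X 10760001 to 10800000, from 18456 to 15529 (-0.28), and Egg-KD gave -0.25 there, while the controls differed by at most 0.0355. Nxf2-KD gave -0.14 and H1-KD and HP1a-KD -0.06 and -0.07. In Nxf2-KD the third decrease was at X 7920001 to 7960000 (-0.18), and in Egg-KD at X 13080001 to 13120000 (-0.26), where Nxf2-KD gave -0.16. Piwi-KD and Egg-KD also shared X 16800001 to 16840000, at -0.17 in each. Other bins decreased in 2 or 3 knockdowns start at X 2960001, 3080001, 4000001, 4080001, 4600001, 4760001, 4960001, 5120001, 5360001, 6440001, 8040001, 8120001 and 13040001, beside X 4640001 and 4800001, whose values are given with H1-KD and HP1a-KD. Over 457 bins the Pearson correlation of the change was 0.73 between Piwi-KD and Nxf2-KD, beside 0.72 to 0.84 on the autosome arms, and 0.31 on X on unbalanced contacts. This is a description of bins that share libraries and neighbours.

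H1-KD and HP1a-KD both had a broader decrease on balanced values, which unbalanced contacts did not show in both. Of the decreased bins, 12 of 25 in H1-KD and 17 of 26 in HP1a-KD lay between 4 and 6 Mb of X, where the median change of 50 bins was -0.10 and -0.11, against -0.02 in Piwi-KD, -0.004 in Nxf2-KD and -0.03 in Egg-KD. HP1a-KD had its largest decrease there, at X 4800001 to 4840000 (-0.32), with -0.19 in H1-KD, -0.16 in Egg-KD, -0.14 in Piwi-KD and -0.13 in Nxf2-KD. H1-KD had its largest at X 4640001 to 4680000, from 6900 to 4976 (-0.41), but this bin gained 0.57 on the log2 scale in total contacts and its unbalanced short-range contacts rose by 0.29. In HP1a-KD the same bin gave -0.27 on balanced and 0.18 on unbalanced contacts. On unbalanced contacts HP1a-KD was also higher at X 4600001 (0.19), 4760001 (0.18) and 5120001 (0.15), where H1-KD gave -0.01, -0.07 and 0.05. Over the 457 bins the Pearson correlation of H1-KD and HP1a-KD was 0.55 on balanced values and -0.35 on unbalanced contacts. At X 6320001 to 6360000 HP1a-KD gave -0.23, and 0.00 on unbalanced contacts.

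Increases in HP1a-KD gathered near the centromere-proximal end of the interior. Of its 29 increased bins, 14 lay between 18 and 20 Mb, with a peak at X 19440001 to 19480000, from 5076 to 6961 (0.23), and another at X 18800001 to 18840000 (0.20). In H1-KD 4 of 19 increased bins lay there and 5 between 14 and 16 Mb. H1-KD increased most at X 19520001 to 19560000 (0.20, and 0.20 in HP1a-KD) and at X 13640001 to 13680000 (0.20). The 4 bins increased in 2 knockdowns, at X 19360001 to 19400000 and X 19480001 to 19600000, were those of H1-KD and HP1a-KD. On unbalanced contacts the HP1a-KD peak was -0.01 and the H1-KD peak 0.24.

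Egg-KD had 2 increased bins, X 16320001 to 16360000 (0.17) and X 12760001 to 12800000 (0.16). The bin increased in Nxf2-KD, X 19840001 to 19880000 (0.18), adjoins the bin removed in 4 matrices, and its unbalanced change was -0.02. The highest values in Piwi-KD did not reach the limit, at 0.13 for X 14160001 to 14200000, which lay between -0.003 and 0.02 against the controls of other series, and 0.11 for X 19240001 to 19280000. The second in Nxf2-KD was 0.14 at X 12680001 to 12720000.

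The third question was how X is divided into domains. Boundaries were called from a separation score, the mean of distance-normalised contacts across a border in windows of 120 to 400 kb, in which a low score marks a strong boundary. X had 36 to 39 boundaries in its interior, or 2.05 ± 0.067 per Mb (SD, n = 9), beside 2.10 on 2L, 2.17 on 2R, 2.24 on 3L and 2.33 on 3R. X was below the autosome mean by a difference of -0.163 ± 0.090 per Mb, in 8 of 9 matrices, and was the lowest arm in 6 (exact sign-flip permutation p = 0.00781, adjusted over 5 measures 0.00977). With a wider window (240 kb) for the rank-sum test the difference was -0.067. The median spacing was 440 kb on X in 9 of 9 matrices.

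Whether X is less insulated depended on the measure. The SD of the separation score was 0.53 on X, with a difference of -0.053 to the autosome mean and below it in 9 of 9 matrices (exact sign-flip permutation p = 0.00391). The SD of log2 insulation, the plain mean value across a border in a 200-kb window, was 0.50, and 0.017 above the autosome mean in 9 of 9 (exact p = 0.00391, n = 9). With windows of 200 to 800 kb the separation score also gave a higher SD on X (0.0166, exact p = 0.0234, n = 9). The mean depth of boundaries, 0.352 on X, differed from that of autosomes by -0.0021 (exact p = 0.664, n = 9).

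Most boundaries were shared by all matrices. Of 37 X interior boundaries in the Piwi-series control, 30 (81.1%) lay within 1 bin of a boundary in all 9 matrices, beside 69.7% of 178 in autosome interiors. The strongest were at X 13680000, 17600000 and 12600000, with mean scores over the 4 controls of -0.94, -0.94 and -0.93. At X 17600000 the score lay between -0.96 and -0.90 in all 9 matrices. At X 13680000 it was -0.96 to -0.91 in the controls and -0.85, -0.85, -0.95, -0.83 and -0.84 in the 5 knockdowns, and no boundary was called within 1 bin of it in HP1a-KD.

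Against their own controls, knockdowns gained 5, 5, 3, 2 and 3 boundaries on the X interior and lost 3, 2, 3, 4 and 5. Those gained were 12.8, 12.8, 7.9, 5.6 and 8.1% of X boundaries, beside 7.0, 7.0, 8.0, 8.6 and 15.8% in autosome interiors. Those lost were 8.1, 5.6, 7.9, 10.5 and 12.8% on X, beside 10.7, 5.5, 11.6, 12.2 and 14.4%. Between any pair of controls, 1 to 6 boundaries were found in one and not in the other, and 1 to 3 in the pairs without the Nxf2-series control. The numbers gained and lost on X thus stayed within the range of all control pairs, but not all within that of the pairs without it.

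A single boundary was called in every knockdown and in no control. It lay at X 3040000, or in HP1a-KD at X 3080000, 1 bin away, at the bins that lost short-range contacts. The separation score at X 3040000 was -0.02, 0.08, 0.10 and 0.11 in the controls of the Piwi, Nxf2, H1 and Egg, and HP1a series. It was -0.50, -0.37, -0.43, -0.04 and -0.13 in the 5 knockdowns. The knockdowns lay below all controls, and Egg-KD only just. The wider windows of this score reach the bins with no values at X 2720001 to 2800000. They also reach the bin at X 2680001, where controls differed by up to 0.85 in short-range contacts. The part of these bins in the score was not tested.

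The mean value across the border at X 3040000, as a percent of the mean within the 200 kb on either side, was 28.0, 26.9, 29.0 and 29.7 in the same controls. It was 19.4, 20.2, 25.3, 24.6 and 24.8 in the 5 knockdowns. Groups did not overlap, but the border was chosen for its change, so no test is given. Recovered contacts across it numbered 4615 to 14862 per matrix.

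A border change was computed in which the factors of single bins cancel, so that balancing cannot alter it: the mean log2 ratio of knockdown to control over bin pairs across a border, minus that over pairs within its 200-kb sides. At X 3040000 it was -0.60, -0.40, -0.24, -0.25 and -0.30 in the 5 knockdowns, and at most 0.186 in size between controls. In Piwi-KD this was the lowest of 439 borders of the X interior, and 1 of 1882 autosome borders was lower. Over all X borders the values between controls spanned -0.46 to 0.61. Changes of decay with distance do not cancel in this measure or in the percent above. Pairs across a border lie further apart on average than pairs within its sides. On the log2 scale the mean X value in Egg-KD changed by 0.30 at 40 kb and -0.001 at 200 kb. In HP1a-KD these values were 0.33 and 0.10. In H1-KD, Egg-KD and HP1a-KD several X borders were lower than X 3040000. The lowest were X 4080000 in H1-KD (-0.47), X 4800000 in Egg-KD (-0.64) and X 19760000 in HP1a-KD (-0.60). Others were X 3600000 in HP1a-KD (-0.35) and X 4120000 in Egg-KD (-0.28). The part of decay in the values at X 3040000 was not tested. In Nxf2-KD the lowest was the neighbouring border X 3000000 (-0.43), where H1-KD gave -0.36 and HP1a-KD -0.07.

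The call itself changed with the settings. The border change was not rerun under these settings, so the stability of the call and of that measure cannot be compared. With windows of 200 to 800 kb the boundary was called in 3 of 5 knockdowns, and on recovered contacts in 1 of 5. With at least 200 kb required between boundaries it was called in 4 of 5, and under each of these settings in 0 of 4 controls.

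**Figure D4:**
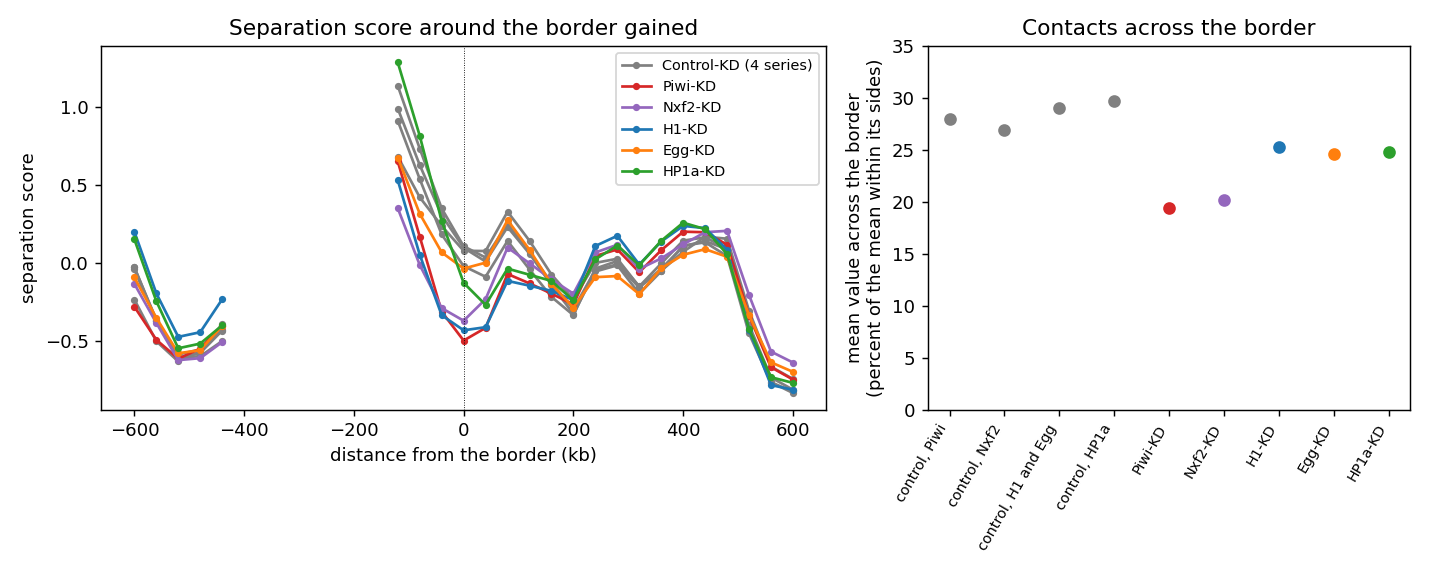
Left, separation score against distance (kb) from the border gained in the knockdowns, for 4 Control-KD matrices (grey) and 5 knockdowns (colours); the gap holds borders next to removed bins. Right, mean value across that border as a percent of the mean within its 200-kb sides, 1 point per matrix, 26.9 to 29.7 in controls and 19.4 to 25.3 in knockdowns.

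The same measure was also low in some knockdowns at other places of short-range loss. These borders, and the boundaries given after them, were chosen after their values were seen. At X 4080000 it was -0.63 in Egg-KD, -0.47 in H1-KD, -0.42 in HP1a-KD, -0.23 in Nxf2-KD and -0.09 in Piwi-KD, with controls within 0.244. At X 8120000 it was -0.30, -0.32, -0.04, -0.51 and -0.49 in the 5 knockdowns (controls within 0.280), and at X 10800000 it was -0.40, -0.26, 0.10, -0.56 and -0.13 (controls within 0.179). The differences between controls were not passed by Piwi-KD and Nxf2-KD at X 4080000, by H1-KD at X 8120000, or by H1-KD and HP1a-KD at X 10800000. In Piwi-KD 9 of 1882 autosome borders were lower than X 10800000. Egg-KD had its lowest X border at X 4800000 (-0.64, controls within 0.356). Piwi-KD, Nxf2-KD, H1-KD and HP1a-KD gave -0.50, -0.21, 0.04 and -0.36 there. HP1a-KD had its lowest at X 19760000 (-0.60, and -0.62 in Egg-KD), where the other knockdowns had no value. At X 13080000 a boundary was called in Piwi-KD and Nxf2-KD and in no control, with a score lower by 0.08 and 0.16 where the controls differed by at most 0.0424. It lay 2 bins from a boundary at X 13160000 that was called in 3 of 4 controls. That boundary was lost in Piwi-KD, and also in H1-KD and Egg-KD, which did not gain the boundary at X 13080000.

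The boundary at X 4240000 was called in all 4 controls and lost in H1-KD, Egg-KD and HP1a-KD, but its score changed by -0.14, 0.04 and -0.07, less than the 0.227 between controls. The boundary at X 16200000, called in all 4 controls, was lost in Piwi-KD and HP1a-KD with score changes of 0.04 and 0.10, beside at most 0.0756 between controls. No dm3 gene annotation was used here, so no gene is named for any of these positions.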

How the data were processed

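Hi-C of OSCs (HindIII digestion) was processed by the authors with HiCExplorer 3.3 per their methods. The deposited signal is a dm3 matrix of 40-kb bins merged from 2 replicates, ICE-balanced (iterative correction, which gives every kept bin the same total) and scaled. From this signal, whole contacts before ICE were recovered by dividing out the bin factors, and for values under 50 the quotients were whole to within 0.01 in 100% of cases. The recovered totals were 25463370 to 73205693 contacts per matrix. Balancing hides differences in total contacts between bins and arms.

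Values were computed with Python 3.11.15, NumPy 2.4.6 and SciPy 1.17.1. They were tested on simulated data. Decay and slopes used pairs with both bins inside. The short-range change summed partners 40 to 400 kb away kept in both matrices. Boundaries followed the definition of hicFindTADs (delta 0.01, rank-sum FDR 0.01, at least 160 kb apart), as the settings of the study are not given in the sources used here. Merged matrices allow no test within a group, so exact sign-flip tests ran over matrices of one cell line and measure the spread between these matrices only, which may be technical. They do not take arms as the unit, and an exact test over 5 arms cannot go below p = 0.2.

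Regions named were, per knockdown, the 3 largest decreases and 2 largest increases, bins past the limit in 2 or more knockdowns, the 3 strongest boundaries, and boundaries called in all matrices of one kind and none of its control. The region, the measures and the lists were chosen with earlier results of these data known. The border change was added after the data were seen, as were a wider rank-sum window and log2 insulation. A first run required 200 kb between boundaries, and this was corrected to the planned 160 kb after its calls had been seen. DamID and ChIP data were not analysed here.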

Additional observations from a re-analysis of the deposited data

Results flagged for a closer look

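Among the 4 Control-KD matrices, the log2 ratio of X interior to autosome interiors at 10 Mb was 0.364 in the HP1a series, below 0.44 to 0.45 in the other 3. The gap to the nearest other control passed Dixon's 95% limit. Of 13 such groups of 4 controls examined this was the only one flagged, and chance alone flags about 1 in 20. HP1a-KD, its partner, gave 0.40.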

How the results depend on the processing

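No paired analysis was possible because each matrix was merged from its 2 replicates, and for the same reason no replicate could be left out. Numbers of bins and boundaries below follow the order Piwi, Nxf2, H1, Egg, HP1a, and the cause of a change was not tested unless the setting itself gives it. The shallower slopes of X kept their direction under all alternatives run and their side of the threshold under all but one. With the 4 Control-KD matrices alone, where no exact p can go below 0.125, the log2 ratio of X to autosomes came to -0.065 for pairs 40 kb apart, 0.11 for 2 Mb and 0.42 for 10 Mb, the slope differences were 0.0306, 0.0341 and 0.148, boundaries per Mb differed by -0.194 and the SD of the separation score by -0.052.

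On recovered contacts the log2 ratio was -0.40 at 120 kb, -0.42 at 200 kb, -0.32 at 400 kb, -0.34 at 1 Mb, -0.28 at 2 Mb, -0.31 at 4 Mb and 0.037 at 10 Mb. X bins hold fewer of these contacts, and the part of this in the ratios was not tested. At 200 kb it was -0.0093 with 4 Mb left out at each end, -0.028 without 2R and -0.0022 with at least 1 bin of a pair inside, and at 120 kb it was -0.019 without 2R. The median short-range change of X minus autosomes was -0.0016 with 4 Mb left out, -0.00022 without 3R, -0.0010 for 80 to 400 kb and -0.0032 with the Nxf2-series control. The SD of insulation on X turned higher than on autosomes with windows of 200 to 800 kb (0.0166) and as log2 insulation (0.0172).

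On recovered contacts decreased bins numbered 0, 0, 0, 1 and 12 and increased bins 0, 0, 7, 0 and 3, and 3 called bins changed sign: Nxf2-KD at X 19840001 (-0.021), H1-KD at X 4640001 (0.29) and HP1a-KD at X 19440001 (-0.012). Of 25 named bins, 20 kept their sign there, and elsewhere 1 value turned sign. A limit of 2 spreads gave 22, 27, 48, 48 and 68 decreased and 3, 5, 56, 18 and 77 increased bins. A limit of 4 gave 3, 3, 8, 10 and 9 decreased and 0, 0, 0, 0 and 5 increased. Over 40 to 200 kb, decreased bins were 4 in Piwi-KD, 6 in Nxf2-KD and 13 in H1-KD, and increased bins 18 in HP1a-KD, 8 in H1-KD and 0 in both Nxf2-KD and Egg-KD. Over 80 to 400 kb, Nxf2-KD had 6 decreased bins, and Piwi-KD, Egg-KD and HP1a-KD had 1, 5 and 14 increased. With 4 Mb left out, H1-KD had 16 decreased and Nxf2-KD and HP1a-KD 0 and 10 increased, over fewer bins.

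With the Nxf2-series control, decreased bins were 31 in Piwi-KD, 48 in H1-KD and 72 in HP1a-KD, and increased bins 48 in HP1a-KD, 40 in H1-KD, 10 in Piwi-KD and 6 in Egg-KD. With that of the Piwi series, increased bins were 25 in Nxf2-KD, 11 in H1-KD, 9 in HP1a-KD and 4 in Egg-KD. With that of the H1 and Egg series, Nxf2-KD had 9 increased bins. With that of the HP1a series, Piwi-KD had 14 decreased and 4 increased bins and Nxf2-KD 5 increased.

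Boundaries gained moved to 5 in H1-KD with 1 Mb left out and to 1 in H1-KD and 1 in Egg-KD with 4 Mb left out, where Nxf2-KD lost 1 and the boundary gained in all knockdowns falls outside the interior (0). On recovered contacts H1-KD, Egg-KD and HP1a-KD gained 1, 11 and 7, Piwi-KD, Nxf2-KD and H1-KD lost 1, 5 and 8, and the shared boundary was called in 1 knockdown. With windows of 200 to 800 kb it was called in 3, gains were 9 in Piwi-KD, 5 in HP1a-KD, 7 in H1-KD and 6 in Egg-KD, and losses 1 in Piwi-KD, 4 in Nxf2-KD, 1 in Egg-KD and 2 in HP1a-KD. Counting the same bin only, H1-KD, Egg-KD and HP1a-KD gained 6, 4 and 5, and Piwi-KD and H1-KD lost 5 and 6. With other controls, HP1a-KD gained 7 (Nxf2 series) or 5 (H1 and Egg series), Nxf2-KD lost 5 (H1 and Egg series) or 4 (HP1a series), Piwi-KD gained 3 and H1-KD lost 5 (HP1a series). Of the alternatives chosen after seeing the data, a rank-sum window of 240 kb gave 5 lost in Nxf2-KD and 6 and 5 gained in Egg-KD and HP1a-KD, and a spacing of 200 kb gave 6 lost in Piwi-KD and 5, 4, 3 and 1 gained in HP1a-KD, Egg-KD, Nxf2-KD and H1-KD.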
